A study of Mus musculus with 6 samples.

Results

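The secretory pathway glycosyltransferases are enzymes of the endoplasmic reticulum and Golgi apparatus that build sugar chains on proteins and lipids bound for the cell surface. Their transcripts were followed here in the sciatic nerve at an age of 1 month, with 3 pools of OGT_SCKO mice and 3 pools of Ctrl littermates on 1 array each. All animals were on a background spelled C56 BL6 in the labels, and the labels call the mutants OGT-KO mice. The series title places the loss of O-GlcNAcylation in Schwann cells, the myelin-forming glia of peripheral nerve, and asks how this bears on the transcription factor JUN. The genetic driver of the deletion and the number of animals in a pool are not given in the sources used here. Whole nerve RNA was measured, so fewer cells of a type and less RNA per cell cannot be told apart. Members were the array probes whose gene name began with Galnt, Galntl, B3galt, B4galt, B3gnt, St3gal, St6gal, St8sia, Mgat or Fut followed by a number, apart from B4galt7 and B3galt6. The files held 91 such probes for 68 gene names. Of these, 63 probes for 50 genes passed a background filter (well above background on every array of 1 group or of both), as did 19050 genes in all.

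OGT, the enzyme removed in these mice, attaches a single N-acetylglucosamine to nuclear and cytoplasmic proteins, whereas the enzymes described here act inside the secretory pathway. GALNT enzymes start mucin-type O-glycans by adding N-acetylgalactosamine to serine or threonine, MGAT enzymes branch N-glycans, and galactosyltransferases and B3GNT enzymes lengthen the chains. Fucosyltransferases and sialyltransferases decorate or cap them, and several members of these families build gangliosides, the sialylated glycolipids of nerve membranes. Both systems draw on sugar nucleotides, and UDP-N-acetylglucosamine is the donor for OGT and for the MGAT and B3GNT enzymes alike.

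Promoters were searched for the AP-1 element because the series title names JUN, a component of AP-1. RefSeq promoter windows, which run from 250 bases before to 50 bases after a start on build GRCm38.p6, were found for 11 of the 15 members whose expression changed, 16 windows in all. The AP-1 letters TGANTCA, read on both strands, occurred in 1 of these 16 windows (6.25%) and in 7.81% of all 32851 windows. The GC box letters GGGCGG, read on both strands, occurred in 7 of 16 (43.8%) and in 35.7% of all windows. A match describes the letters of a window and not a binding site. The first sequence is the 250 bases before the start of Galnt16, the changed member with the AP-1 letters, at chr12:80518552-80518801 on the plus strand, and its match in capitals begins 161 bases before the start. The others are the members with the largest rise and the largest fall, among called members that were well above background on all 6 arrays and had a window. They are Galnt6, with the first listed of its 2 windows, at chr15:100729377-100729626 and B3galt4 at chr17:33951489-33951738, both on the minus strand, with GC boxes in capitals. All are written 5′ to 3′.
Galnt16: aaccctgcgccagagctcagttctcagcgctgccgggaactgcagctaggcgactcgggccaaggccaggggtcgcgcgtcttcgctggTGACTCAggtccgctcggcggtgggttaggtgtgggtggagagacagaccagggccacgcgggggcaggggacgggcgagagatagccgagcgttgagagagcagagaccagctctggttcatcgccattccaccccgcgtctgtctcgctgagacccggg
Galnt6: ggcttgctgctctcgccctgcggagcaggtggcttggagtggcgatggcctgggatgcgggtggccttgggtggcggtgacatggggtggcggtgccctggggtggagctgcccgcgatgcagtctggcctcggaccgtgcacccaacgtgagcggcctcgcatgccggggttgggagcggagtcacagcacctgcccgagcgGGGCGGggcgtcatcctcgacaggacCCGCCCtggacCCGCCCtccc
B3galt4: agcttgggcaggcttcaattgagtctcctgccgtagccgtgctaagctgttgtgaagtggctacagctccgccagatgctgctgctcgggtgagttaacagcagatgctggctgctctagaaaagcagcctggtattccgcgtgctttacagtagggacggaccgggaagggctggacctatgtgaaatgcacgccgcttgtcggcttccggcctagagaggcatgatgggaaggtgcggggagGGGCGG
The Galnt6 stretch held 3 GC boxes and that of B3galt4 held 1, while that of Galnt16 held none.

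The arrays gave well-above-background signal at 59.9% to 66.1% of 43020 spots, with no saturated spot. Expression is given as log2 signal minus the 75th percentile of the same array, so that 0 is the level of the 75th percentile. Levels are compared between pools for 1 probe and never between probes. Ogt itself stood at -0.89, -1.01 and -1.01 in the OGT_SCKO pools, against 0.46, 0.35 and 0.11 in the Ctrl pools. This was 41.3% of the Ctrl level, a difference of -1.28 on the log2 scale (SE 0.13; adjusted p = 0.0011 by limma). All OGT_SCKO arrays and Ctrl 2 lay on slide 1, and Ctrl 1 and Ctrl 3 lay on slide 2, so that with slide as a block the comparison rests on Ctrl 2 alone. Some markers of cell types also differed between the groups. For comparison, 23.3% of all genes tested were called in either direction (limma, adjusted p under 0.05). Of 7 tested adipocyte markers 5 were lower and none higher, and their summed signal was 26.6% to 231.9% of the 75th percentile in OGT_SCKO pools, against 343.2% to 1972.2% in Ctrl pools, with Lep not above background on any array. Of 8 tested skeletal muscle markers 6 were lower, with sums of 207.9% to 382.0% in OGT_SCKO pools and 534.3% to 659.3% in Ctrl pools. Of 10 Schwann cell markers 2 were lower, with overlapping sums of 31283% to 50089.7% in OGT_SCKO pools and 48456.9% to 64029.5% in Ctrl pools. Of 7 endothelial markers 2 were lower (2311.1% to 2882.7% in OGT_SCKO pools, against 3508.8% to 3910.0% in Ctrl pools). Of 7 mast cell and neutrophil markers 2 were higher (427.1% to 749.4% in OGT_SCKO pools, against 182.9% to 379.0% in Ctrl pools), both of them mast cell genes (Kit and Tpsb2). Of 6 perineurial markers 1 was higher and 2 lower (3158.4% to 3876.8% in OGT_SCKO pools, against 4615.8% to 6315.6% in Ctrl pools), and of 4 tested erythroid markers 1 was lower (5563% to 7122.4% in OGT_SCKO pools, against 8576.7% to 15184.7% in Ctrl pools). The sums of the macrophage, T and NK cell, fibroblast, mural and epithelial lists overlapped between groups. The part of these cells in the results below was not tested.

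The enzyme genes moved in both directions. Of the 50 measured members, 8 were higher and 7 lower in OGT_SCKO nerves at an adjusted p under 0.05 (limma, Benjamini-Hochberg over all genes), and 35 did not pass the test. The called share of 30.0% stands beside 23.3% of all genes tested, with 11.1% higher and 12.1% lower. The same all-gene share stands beside the counts per enzyme family below, and no family was tested as a set. A change of at least 2-fold was called for 2 members in each direction, where 6.69% of all genes reached it in either direction. OGT_SCKO and Ctrl pools did not overlap for 27 members (54.0%), 12 higher and 15 lower, against 45.7% of all genes (20.4% higher and 25.4% lower). The median log2 fold change was -0.05 over the measured members and -0.07 over all genes, and the median size of a change was 0.34 over the members and 0.32 over all genes. The 2 members with a called rise of at least 2-fold were B3galt5 and B3gnt3. Both passed the background filter through the OGT_SCKO arrays alone, and the counts over measured members include them. Among the 46 members above background on all 6 arrays, 6 were higher and 7 lower, where 22.6% of all genes under that filter were called.

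**Figure D1:**
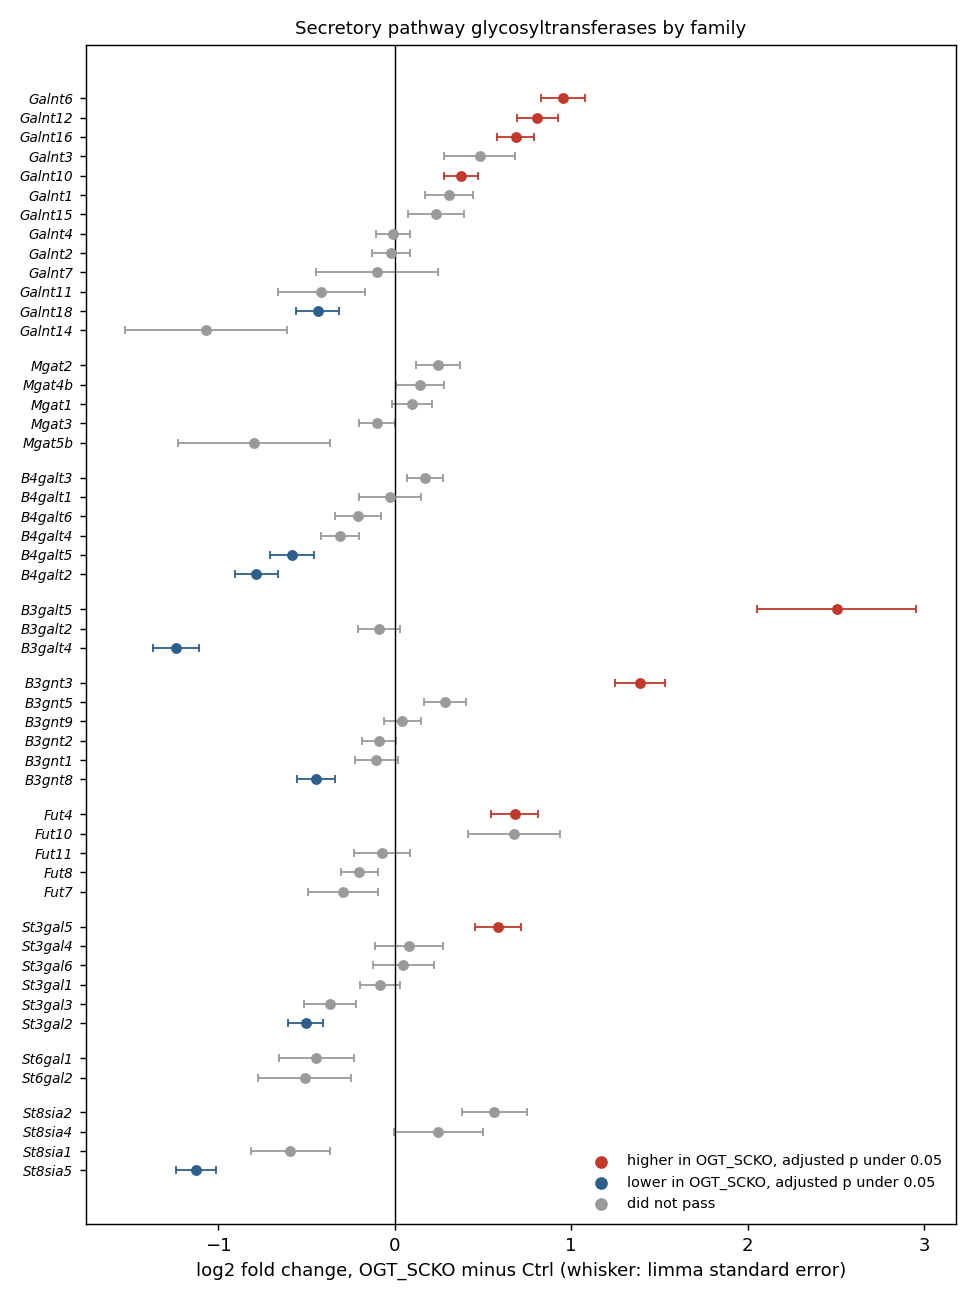
Log2 fold change, OGT_SCKO minus Ctrl, of the 50 measured glycosyltransferase genes, grouped by enzyme family, with whiskers for the limma standard error (3 pools a group). Red points passed the test and were higher in OGT_SCKO, blue points passed and were lower, and grey points did not pass. B3galt5 lies furthest right at 2.50 and B3galt4 furthest left at -1.24, while no Mgat or St6gal gene is coloured.

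Galnt enzymes start mucin-type O-glycans. Of 13 measured Galnt genes, 4 rose (Galnt6, Galnt12, Galnt16 and Galnt10), Galnt18 fell and 8 did not pass the test. Galnt6 had values of -1.81, -1.54 and -1.65 in OGT_SCKO pools, against -2.54, -2.55 and -2.77 in Ctrl pools. The 2 groups were far apart relative to their spread, and the rise was 1.94-fold (0.95 on the log2 scale, SE 0.12; adjusted p = 0.00335 by limma). Galnt12 stood at 0.19, -0.01 and 0.17 in OGT_SCKO pools, against -0.65, -0.60 and -0.82 in Ctrl pools. It was 1.75-fold higher, again with no overlap (log2 fold change 0.81 with SE 0.12, limma adjusted p = 0.00479). Second probes of both genes gave the same direction and call, with log2 fold changes of 0.68 for Galnt6 and 0.96 for Galnt12. The Galnt6 probe lies on chromosome 15 at 100522237 to 100522296 and the Galnt12 probe on chromosome 4 at 47135581 to 47135640, on build mm9 of the files.

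Galnt16 was measured at 2.93, 3.06 and 3.01 in OGT_SCKO pools, against 2.22, 2.39 and 2.34 in Ctrl pools. Every OGT_SCKO pool was above every Ctrl pool, a rise of 1.61-fold (log2 fold change 0.69 with SE 0.10, limma adjusted p = 0.00582). Galnt10, whose product prefers substrates that already carry a sugar, gave 1.94, 1.92 and 2.00 in OGT_SCKO pools, against 1.54, 1.57 and 1.63 in Ctrl pools. The rise of 1.30-fold was small but larger than the spread within groups (log2 fold change 0.38 with SE 0.10, limma adjusted p = 0.0336). Galnt18 ran the other way, with -1.58, -1.84 and -1.61 in OGT_SCKO pools, against -1.37, -1.19 and -1.15 in Ctrl pools. It was 1.35-fold lower without overlap (log2 fold change -0.44, limma adjusted p = 0.0458). Galnt2, a broadly expressed initiator, had 2.99, 2.81 and 2.89 in OGT_SCKO pools, against 2.82, 2.99 and 2.94 in Ctrl pools. Its pools overlapped, with a log2 fold change of -0.02 (SE 0.11). Galnt1, the other broad initiator, had a log2 fold change of 0.31 (limma adjusted p = 0.147).

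The remaining Galnt genes that did not pass were Galnt3, Galnt4, Galnt7, Galnt11, Galnt14 and Galnt15. The pool OGT_SCKO 2 set the spread of several members. In Galnt14 it stood at -5.93, against -4.08 and -4.35 in the other OGT_SCKO pools and -3.81, -3.66 and -3.69 in the Ctrl pools, and the log2 fold change of -1.07 had an adjusted p of 0.137 (limma). The value of -5.93 lay under that array's lowest well-above-background value of -5.77, so the size of this change is not measured. In Galnt7 the pool OGT_SCKO 2 stood at 1.74, against 3.06 and 2.68 in the other OGT_SCKO pools and 2.37, 2.94 and 2.46 in the Ctrl pools. Galnt3, known for modifying the phosphate hormone FGF23, was kept through OGT_SCKO arrays alone and had a log2 fold change of 0.48 (limma adjusted p = 0.130). The kept probes of Galnt15 differed in sign, at 0.23 and -0.12, and neither passed. Galnt4 and Galnt11 had log2 fold changes of -0.01 and -0.42 and did not pass.

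Among the measured members, galactose-adding enzymes had the largest fall and the largest fitted rise, the rise being against mostly dim Ctrl values. B3galt5, which adds galactose to N-acetylglucosamine to form type 1 chains, had values of -2.77, -2.88 and -2.92 in OGT_SCKO pools, against -4.92, -6.48 and -4.67 in Ctrl pools. The OGT_SCKO pools lay close together and well above all Ctrl pools, of which 1 of 3 was above background. The fitted rise, which includes the 2 Ctrl arrays not above background, was 5.67-fold (log2 fold change 2.50 with SE 0.45, limma adjusted p = 0.0106). Its size depends on the dim Ctrl values. It was 3.70-fold when values under an array's lowest well-above-background value were raised to it, 2.46-fold with normexp background correction and 12.4-fold with slide as a block. The probe lies on chromosome 16 at 96541170 to 96541229 (mm9).

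B3galt4, the enzyme that adds galactose to make the ganglioside GM1, had the largest fall among the measured members. Its values were -0.79, -0.99 and -0.80 in OGT_SCKO pools, against 0.17, 0.48 and 0.48 in Ctrl pools. The level in OGT_SCKO nerves was 42.4% of that in Ctrl nerves (log2 fold change -1.24 with SE 0.13, limma adjusted p = 0.00158). A second B3galt4 probe fell alike, with a log2 fold change of -1.13. The probes lie on chromosome 17 at 34087001 to 34087060 and 34087156 to 34087215 (mm9). B3galt2, the third measured member of the family, had a log2 fold change of -0.09 (SE 0.12).

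Of 6 measured B4galt genes, which add galactose to N-acetylglucosamine or to glucosylceramide, 2 fell and 4 did not pass. B4galt2 stood at -0.72, -0.64 and -0.93 in OGT_SCKO pools, against 0.11, -0.10 and 0.05 in Ctrl pools. No OGT_SCKO pool reached the Ctrl range, and the fall was 1.72-fold (log2 fold change -0.78 with SE 0.12, limma adjusted p = 0.00692). B4galt5, a lactosylceramide synthase, gave -0.42, -0.58 and -0.69 in OGT_SCKO pools, against -0.06, -0.05 and 0.17 in Ctrl pools. The level in OGT_SCKO nerves was 66.8% of that in Ctrl nerves, without overlap (log2 fold change -0.58 with SE 0.12, limma adjusted p = 0.0189). B4galt1, the general enzyme of N-glycan galactosylation, had 0.73, 1.19 and 0.69 in OGT_SCKO pools, against 0.95, 0.68 and 1.05 in Ctrl pools. The pools of B4galt1 overlapped (log2 fold change -0.03, SE 0.18). B4galt3, B4galt4 and B4galt6 had log2 fold changes of 0.17, -0.31 and -0.21 and did not pass, and the second probe of B4galt6 had the opposite sign at 0.01.

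The B3gnt family, which adds N-acetylglucosamine to galactose, gave 1 rise, 1 fall and 4 genes that did not pass. B3gnt3, an enzyme that extends core 1 O-glycans, had -3.73, -3.98 and -3.98 in OGT_SCKO pools, against -5.15, -5.51 and -5.21 in Ctrl pools. It was above background on all OGT_SCKO arrays and on none of the Ctrl arrays, so only a bound applies. The level was at least 2.15-fold higher in OGT_SCKO nerves. For this bound the Ctrl mean was taken with each array's lowest well-above-background value where that was higher. A fit of B3gnt3 on values raised in this way gave a limma adjusted p of 0.00775. The Ctrl values in that fit were either not above background or a floor value, and the gene was kept through the OGT_SCKO arrays alone. This p-value therefore cannot decide how firm the rise is. With normexp correction, whose offset draws dim values together, the call of B3gnt3 ended (1.61-fold, limma adjusted p = 0.151). B3gnt8, which lengthens lactosamine chains on branched N-glycans, stood at -1.62, -1.55 and -1.65 in OGT_SCKO pools, against -1.27, -1.05 and -1.18 in Ctrl pools. Its fall of 1.36-fold was without overlap (log2 fold change -0.44 with SE 0.11, limma adjusted p = 0.0286). B3gnt2, its partner in polylactosamine synthesis, had a log2 fold change of -0.09 (SE 0.10). The gene that the files call B3gnt1 is B4gat1 in RefSeq, where it belongs to the synthesis of the laminin-binding glycan of dystroglycan. It had 1.28, 1.52 and 1.41 in OGT_SCKO pools, against 1.43, 1.43 and 1.67 in Ctrl pools, which overlapped (log2 fold change -0.10, SE 0.12). B3gnt5, the first enzyme of lacto-series glycolipids, had a log2 fold change of 0.29 and B3gnt9 one of 0.04, and neither passed.

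**Figure D2:**
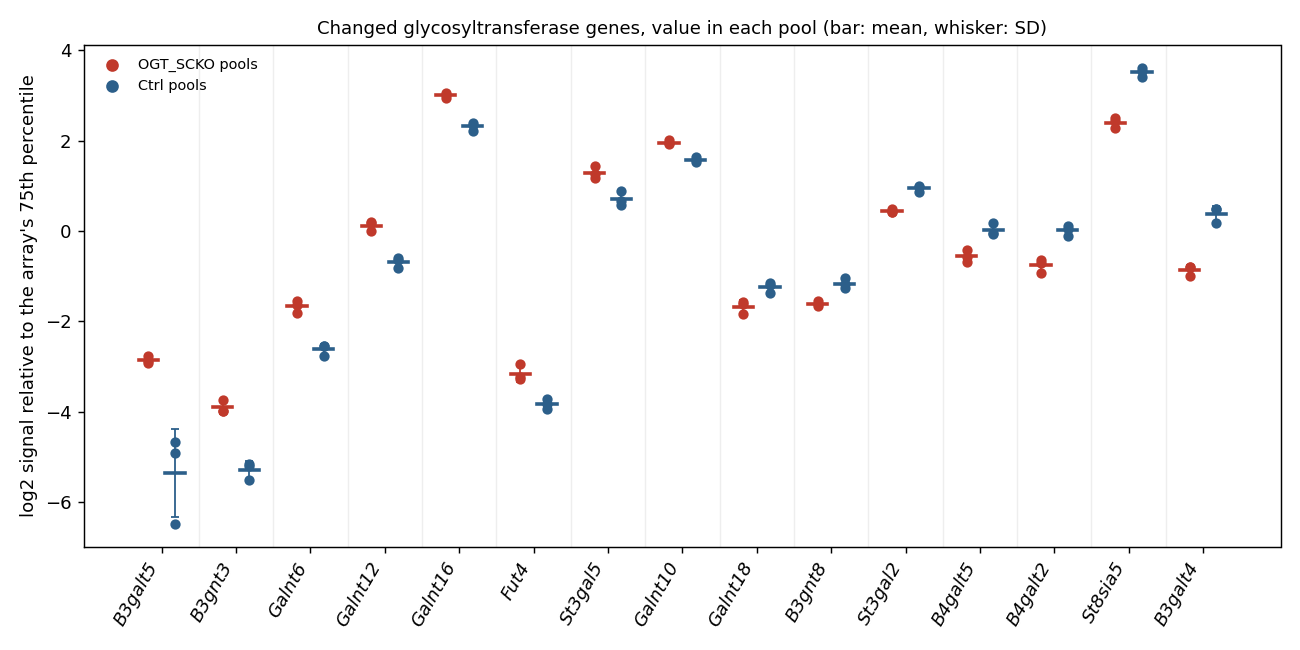
Value of each pool for the 15 members that passed the test, as log2 signal relative to the array's 75th percentile, with OGT_SCKO pools in red left of Ctrl pools in blue. Bars are means and whiskers the SD over 3 pools. Levels of different genes come from different probes and are not comparable. The 2 groups do not overlap for any of the 15 genes, and the Ctrl pools of B3galt5 spread most, between -6.48 and -4.67.

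None of the 5 measured Mgat genes, the branching enzymes of N-glycans, passed the test. Mgat4b had 2.35, 1.99 and 2.34 in OGT_SCKO pools, against 2.00, 2.18 and 2.07 in Ctrl pools. The ranges overlapped, and the log2 fold change was 0.14 (SE 0.14). Mgat1, which opens the way to complex N-glycans, had a log2 fold change of 0.10 (SE 0.11), Mgat2, which starts the second branch, 0.25 (SE 0.13) and Mgat3, which adds the bisecting residue, -0.10 (SE 0.10). Mgat5b, a branching enzyme of O-mannose glycans in brain, stood at -1.22 in OGT_SCKO 2, against 0.41 and -0.04 in the other OGT_SCKO pools and 0.12, 0.97 and 0.46 in Ctrl pools. Its log2 fold change of -0.80 (SE 0.43) was within that spread (limma adjusted p = 0.215).

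Among 5 measured fucosyltransferases, Fut4 rose and the others did not pass. Fut4, which makes the Lewis x (CD15) epitope, gave -3.29, -2.95 and -3.23 in OGT_SCKO pools, against -3.95, -3.72 and -3.84 in Ctrl pools. The 2 groups were separate, and the rise was 1.60-fold (log2 fold change 0.68 with SE 0.13, limma adjusted p = 0.0140). Fut10 had an equal log2 fold change of 0.68 with a wider spread (SE 0.26, limma adjusted p = 0.106). Fut8, which adds the core fucose of N-glycans, had 2.92, 2.88 and 3.08 in OGT_SCKO pools, against 3.14, 3.18 and 3.15 in Ctrl pools. All OGT_SCKO values of Fut8 lay under the Ctrl values, but the log2 fold change of -0.20 (SE 0.10) did not pass (limma adjusted p = 0.198). Fut7, which completes sialyl Lewis x on leukocytes, had a log2 fold change of -0.29 (SE 0.20) and Fut11 one of -0.07 (SE 0.16). The neutrophil markers S100a8, S100a9 and Ly6g had log2 fold changes of 0.03, 0.37 and 0.03 and did not pass. S100a8 and S100a9 were dim, above background on 2 of 3 Ctrl arrays. The part of neutrophils in the Fut4 rise was not tested.

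Sialyltransferases gave 1 rise and 2 falls among 12 measured genes, where 23.3% of all genes were called in either direction. St8sia5, which adds sialic acid to sialic acid on complex gangliosides, stood at 2.43, 2.27 and 2.49 in OGT_SCKO pools, against 3.42, 3.60 and 3.55 in Ctrl pools. The level in OGT_SCKO nerves was 45.9% of the Ctrl level, with groups far apart (log2 fold change -1.12 with SE 0.11, limma adjusted p = 0.00133). St3gal2, which adds the terminal sialic acid of gangliosides GD1a and GT1b, had 0.41, 0.49 and 0.41 in OGT_SCKO pools, against 0.87, 0.99 and 0.97 in Ctrl pools. It was 1.42-fold lower, without overlap (log2 fold change -0.50 with SE 0.10, limma adjusted p = 0.0138). A second St3gal2 probe had a log2 fold change of -0.41 and did not pass. St3gal5, the enzyme that makes GM3 from lactosylceramide, gave 1.17, 1.44 and 1.27 in OGT_SCKO pools, against 0.58, 0.66 and 0.88 in Ctrl pools. The OGT_SCKO level was 150.1% of the Ctrl level, again without overlap (log2 fold change 0.59 with SE 0.13, limma adjusted p = 0.0223).

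St3gal3, a sialyltransferase of glycoproteins and glycolipids, had 4.04, 3.65 and 4.09 in OGT_SCKO pools, against 4.21, 4.39 and 4.27 in Ctrl pools. Its OGT_SCKO values were all lower, but the log2 fold change of -0.37 (SE 0.15) did not pass (limma adjusted p = 0.117). St3gal1, St3gal4 and St3gal6 had log2 fold changes between -0.08 and 0.08, and the second St3gal1 probe differed in sign at 0.06. St6gal1, which caps N-glycans, gave 0.47, 1.26 and 0.87 in OGT_SCKO pools, against 1.43, 1.14 and 1.36 in Ctrl pools. The pools of this probe overlapped (log2 fold change -0.44 with SE 0.21, limma adjusted p = 0.169). The second St6gal1 probe was separate between groups, at -1.95, -1.73 and -1.53 in OGT_SCKO pools and -1.14, -1.04 and -0.99 in Ctrl pools. It passed when every probe was fitted on its own (log2 fold change -0.67, limma adjusted p = 0.0151). St8sia2 and St8sia4, which make polysialic acid on the adhesion molecule NCAM, had log2 fold changes of 0.56 (limma adjusted p = 0.0703) and 0.25 (limma adjusted p = 0.492). St6gal2 had one of -0.51 (limma adjusted p = 0.198) and St8sia1, which makes GD3, one of -0.59 (limma adjusted p = 0.104).

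Members of ganglioside synthesis, set in the order of the pathway after their values were seen, had calls in both directions. Glucosylceramide is converted to lactosylceramide and GM3, and the ganglio-series then receives N-acetylgalactosamine, galactose and further sialic acids. Ugcg, which makes glucosylceramide and is no member, had a log2 fold change of -0.08 (SE 0.12). B4galt5 at the next step was lower at -0.58 and B4galt6 at the same step was -0.21 and did not pass. St3gal5 was higher at 0.59, and St8sia1, which makes GD3, was -0.59 and did not pass. B4galnt1, the N-acetylgalactosaminyltransferase of the series and no member, was 0.43 (SE 0.18, limma adjusted p = 0.129). B3galt4 at -1.24, St3gal2 at -0.50 and St8sia5 at -1.12, which act after it, passed as lower in OGT_SCKO nerves, and no test of the pathway as a group was made. The second St3gal2 probe, at -0.41, did not pass. St3gal3, given above as acting on glycolipids too, was left out of this order. It had a log2 fold change of -0.37 and did not pass.

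**Figure D3:**
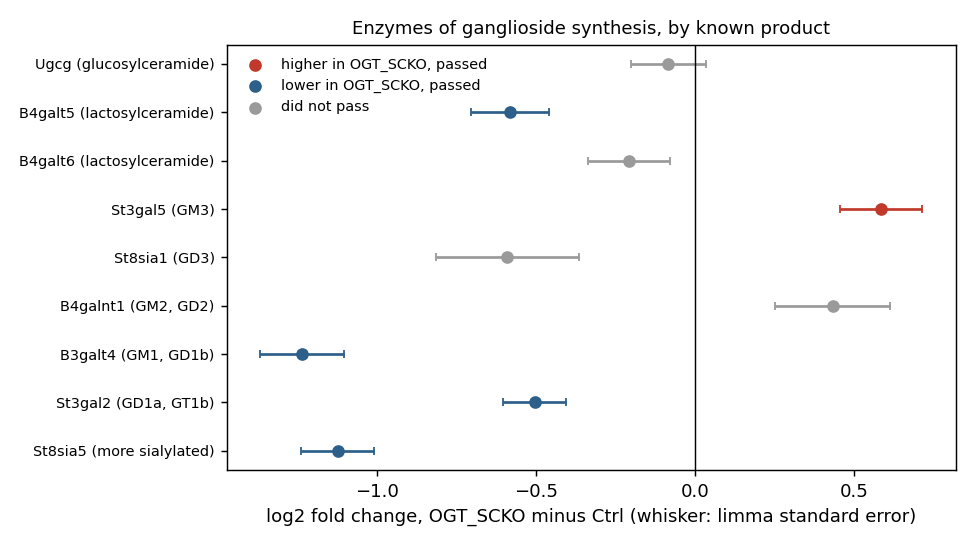
Log2 fold change, OGT_SCKO minus Ctrl, of 9 enzymes of ganglioside synthesis ordered by the product each is known to make, with whiskers for the limma standard error (3 pools a group). St3gal5 (red, 0.59) is higher in OGT_SCKO, and B4galt5, B3galt4, St3gal2 and St8sia5 (blue) are lower. Ugcg, B4galt6, St8sia1 and B4galnt1 (grey) did not pass.

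The firmness of these calls differed between members. With slide as a block, 4 of the 15 calls held, where 6.43% of all genes passed in either direction: B3galt5 (log2 fold change 3.63, limma adjusted p = 0.00285), B3gnt3 (1.61, 0.00976), B3galt4 (-1.34, 0.021) and St8sia5 (-1.21, 0.0197). For B3galt5 and B3gnt3 the values of Ctrl 2, at -6.48 and -5.51, lay under that array's lowest well-above-background value of -4.64, so the sizes of their changes there are not measured. The other 11 had adjusted p-values between 0.0544 (Galnt6) and 0.188 (Galnt10) there. Within slide 1, where Ctrl 2 is the only Ctrl array and is assumed to vary like the OGT_SCKO arrays, 2.13% of all genes passed. There B3galt4 had a limma adjusted p of 0.0583 and St8sia5 of 0.0749, while B3galt5 (0.0176) and B3gnt3 (0.0439) rest on that 1 value below background. Leaving out any single pool kept the calls of 8 members: Galnt6, Galnt12, Galnt16, B4galt2, B3galt4, St8sia5, B3galt5 and B3gnt3. B3galt5 (limma adjusted p up to 0.0454) and B3gnt3 were kept through the OGT_SCKO arrays alone. Their Ctrl values were mostly or all not above background, so these fits cannot show how firm their calls are. Without OGT_SCKO 3, 8 of the 15 calls were left, where 10.4% of all genes passed. Without Ctrl 1, Ctrl 2 or Ctrl 3, 9 were left, where 12.8%, 13.4% and 11.0% of all genes passed. In these 4 fits, limma adjusted p-values reached 0.0600 for Fut4, 0.0820 for St3gal5, 0.0695 for St3gal2, 0.0835 for B4galt5, 0.112 for B3gnt8, 0.130 for Galnt10 and 0.153 for Galnt18. Galnt18 also missed the threshold without OGT_SCKO 2 (0.0788). Of the 6 such fits, Fut4, St3gal5 and St3gal2 passed in 3, B4galt5, B3gnt8 and Galnt10 in 2, and Galnt18 in 1. St8sia1, Fut7, St6gal2 and Galnt1 passed only without OGT_SCKO 1, and Galnt14 and St6gal1 only without OGT_SCKO 2, among the 6 fits that leave out a pool. With normexp correction 10 of the 15 calls held, where 14.3% of all genes passed, and with quantile normalisation all 15 held and St8sia2 joined them, where 25.8% of all genes passed. None of the 15 called members changed sign under a setting that gave it another fold change, B3galt5 and B3gnt3 having no value under the filter on all 6 arrays.

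**Figure D4:**
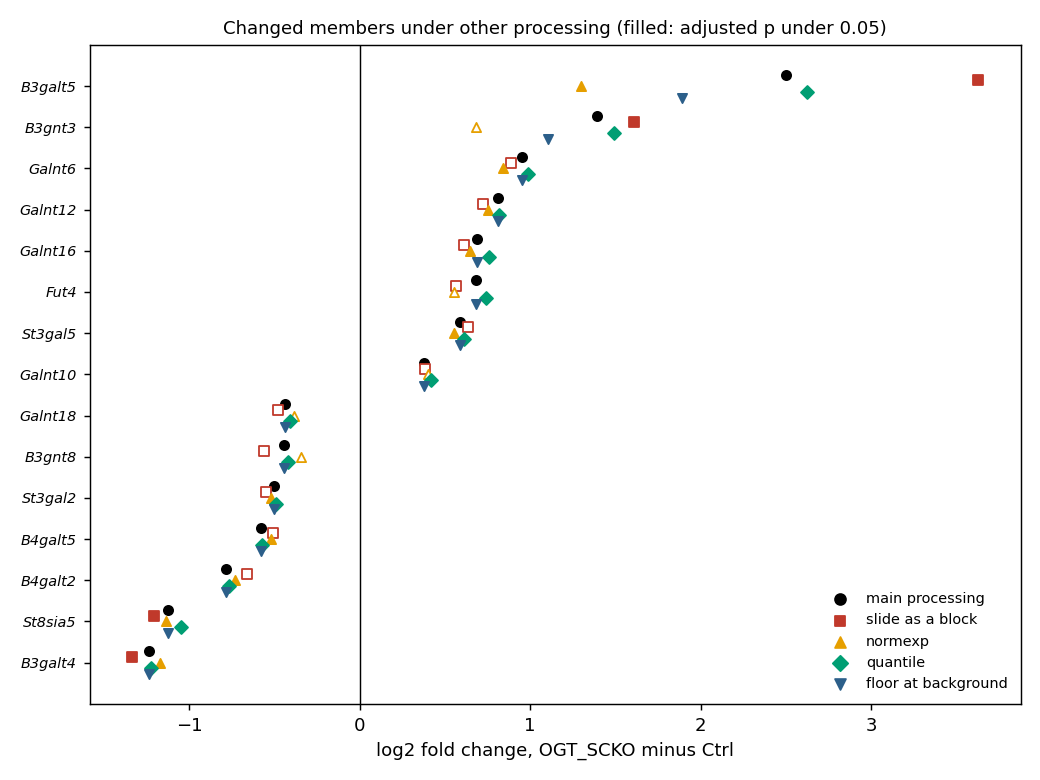
Log2 fold change, OGT_SCKO minus Ctrl, of the 15 changed members under the main processing (black circles), with slide as a block (red squares), normexp background correction (orange triangles), quantile normalisation (green diamonds) and a floor at background (blue triangles). Filled symbols passed an adjusted p under 0.05. No symbol crosses 0, and B3galt5 moves most, between 1.30 with normexp and 3.63 with slide as a block.

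Other glycosylation genes were read from 11 lists, 131 genes of which 120 were tested. Of these 9 were higher, 20 lower and 91 not called, a called share of 24.2% beside 23.3% of all genes, with a median log2 fold change of -0.04. With slide as a block 7 calls were left, and 11, 13, 15 and 11 without OGT_SCKO 3, Ctrl 1, Ctrl 2 and Ctrl 3. Of the genes named below, Gcnt1, Pomgnt2, Pomt2, Pomk, B3gat1, Slc35b4 and Slc35a4 passed in all 6 fits that leave out a pool. Of these fits St6galnac5 passed in 1, Alg12 and Mogs in 2, C1galt1c1, Gmds and Lfng in 3, Slc35a1 in 4 and Dpagt1 in 5. OGT_SCKO 3 was the pool without which St6galnac5, Alg12, Mogs, C1galt1c1, Gmds, Lfng and Slc35a1 did not pass, and Ctrl 3 that for the same genes without Gmds and with Dpagt1. Without Ctrl 1, St6galnac5, Alg12, Mogs, C1galt1c1 and Gmds did not pass, without Ctrl 2 St6galnac5, Alg12, Mogs and Gmds, and without OGT_SCKO 2 St6galnac5 and Lfng. In donor synthesis, 2 of 12 genes rose and none fell. Gmds, of GDP-fucose synthesis, rose 1.51-fold (limma adjusted p = 0.0244; 0.0562 with the slide block).

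Of 8 genes for the O-glycan cores and sialyl-Tn, 1 rose and 2 fell. Gcnt1, which makes core 2 branches, had -0.36, -0.01 and -0.36 in OGT_SCKO pools, against -1.49, -1.69 and -1.49 in Ctrl pools. It rose 2.49-fold (log2 fold change 1.32 with SE 0.14, limma adjusted p = 0.00157; 0.0184 with the slide block). C1galt1c1, the chaperone of the core 1 enzyme, fell 1.52-fold (limma adjusted p = 0.0155; 0.145 with the slide block), and St6galnac5 had a log2 fold change of -0.50 (limma adjusted p = 0.0391; 0.232 with the slide block). The O-mannose list, which holds enzymes of the dystroglycan glycan, gave 4 falls and no rise among 15 genes, a called share of 26.7% beside 23.3% of all genes. Pomgnt2 had -1.57, -1.12 and -1.46 in OGT_SCKO pools, against 0.06, -0.03 and 0.29 in Ctrl pools. It fell 2.80-fold (limma adjusted p = 0.00157; 0.0309 with the slide block), Pomt2 1.95-fold (0.00249; 0.0274 with the slide block) and Pomk 1.49-fold (0.0087; 0.106 with the slide block). The skeletal muscle markers, a tissue rich in dystroglycan, were lower in OGT_SCKO pools as given above, and their part was not tested.

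B3gat1, the glucuronyltransferase of the HNK-1 epitope of nerve glycoproteins and glycolipids, stood at -2.59, -2.29 and -2.20 in OGT_SCKO pools, against -0.86, -1.04 and -0.78 in Ctrl pools. It was 2.76-fold lower (log2 fold change -1.47 with SE 0.14, limma adjusted p = 0.00114; 0.0243 with the slide block). Among 10 Golgi transporters of sugar nucleotides 2 rose and 3 fell. Slc35a1, the CMP-sialic acid carrier, rose 1.69-fold (limma adjusted p = 0.0116; 0.0862 with the slide block), while Slc35b4 and Slc35a4 fell 1.58-fold and 1.47-fold (0.00649 and 0.00848; 0.0885 and 0.104 with the slide block). In N-glycan precursor assembly 4 of 22 genes fell, among them Dpagt1, which starts the precursor (1.53-fold), and Alg12 (1.40-fold), both not passing with slide as a block. Of 15 trimming genes, Mogs, the first glucosidase, rose by 0.58 on the log2 scale (limma adjusted p = 0.0189; 0.0899 with the slide block). Of 7 O-fucose and Fringe genes, Lfng rose 1.85-fold (limma adjusted p = 0.0324; 0.0213 with the slide block), and 2 fell. None of 6 glycolipid and N-acetylgalactosamine-extending genes passed.

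**Figure D5:**
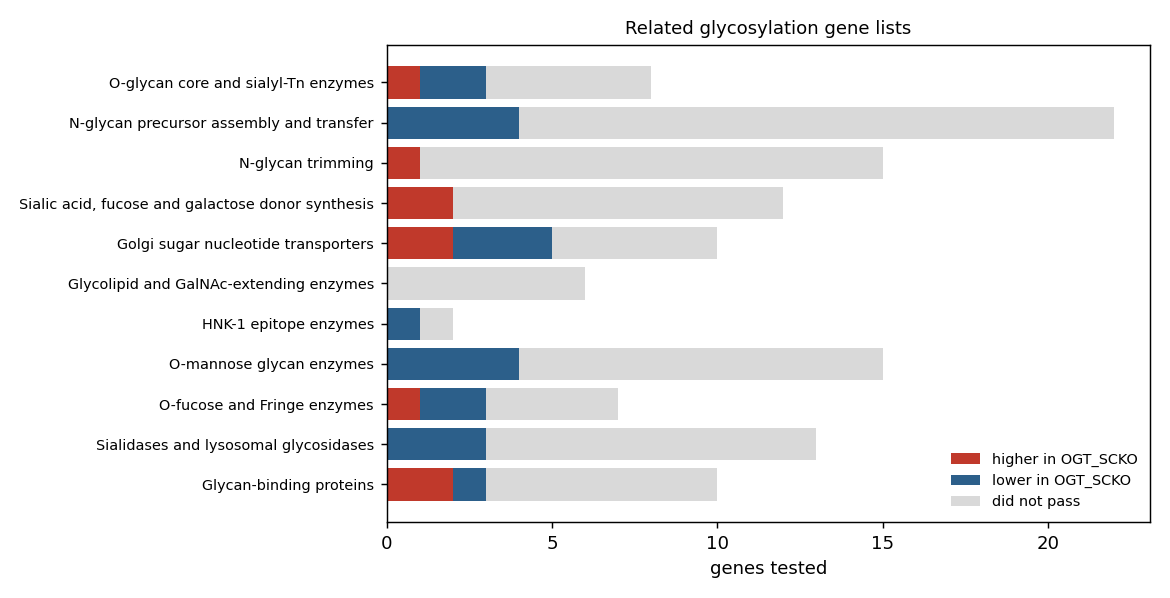
Number of tested genes in 11 lists of related glycosylation genes, divided into those higher in OGT_SCKO (red), lower in OGT_SCKO (blue) and not passing the test (grey). The transporter list is divided 2 higher, 3 lower and 5 not passing, and the O-mannose list 0 higher, 4 lower and 11 not passing.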

How the data were processed

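Per the labels' protocols, total RNA of sciatic nerve was labelled chemically with a red dye, with 1 sample per array. Per the file headers, the deposited intensity values come from Agilent Feature Extraction 11.5.1.1, with background subtraction, detrending and surrogates for very low values, and were not normalised between arrays. Flags in the same files, also per the file headers, mark spots as well above background, saturated or outliers. The authors' deposited log2 table had a median of 9.13 in each column and correlated at 0.9989 to 0.9999 with log2 of the same array's processed signal, so its scale and direction were taken from that; no source used here says how its columns came to share 1 distribution. It served as an alternative.

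The values computed here were log2 of the processed intensity minus the array's 75th percentile. That percentile ran from 2749.2 in Ctrl 2 to 6136.2 in OGT_SCKO 2. Control and outlier spots were left out (40 probes lost at least 1 array) and spots of a probe averaged. Kept probes were well above background on every array of 1 group or of both (24279 probes, 19050 genes), and a gene was its kept probe with the highest mean over 6 arrays. Probes were named through RefSeq (GRCm38.p6), which matched 27721 probes, 86 of the 91 member probes among them, and updated 1740 symbols. Members keep the name in the files, so that probes which RefSeq alone gives a family name are not members. Groups were compared with limma 3.58.1 (lmFit and eBayes, R 4.3.3), with Benjamini-Hochberg adjustment over all genes and a threshold of 0.05. The fit was tested on simulated data. The number of arrays limits the precision, and p-values reflect the pool-to-pool spread only. An exact two-sided permutation test of 3 against 3 pools cannot go below p = 0.1.

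Full values are given for changed members, for the kept member with the highest mean in each family, for Ogt, and for genes among up to 3 changed genes with the smallest p per related list; every other member is named once. Ugcg and B4galnt1 lie outside that rule and were chosen after their values were seen. Some genes of the related lists are counted but not reported here by name. The members, gene lists and alternatives were chosen with earlier results of these data known. The alternatives were other scalings, background corrections, filters, probe summaries, slide and replicate blocks, variance models, a threshold of 0.01 and each pool left out. Probe positions are those of the files (mm9), and their exon or UTR context was not analysed here.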

Additional observations from a re-analysis of the deposited data

How the results depend on the processing

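Of 15 changed members, 8 were higher and 7 lower, among 2123 higher and 2311 lower genes in all, and 29 genes of the related lists changed. With normexp correction 5 members were higher, the members' median log2 fold change was 0.0154 and 1224 of all genes were lower. Without a filter on dim probes, when more genes were tested, 3 members were lower, 1321 of all genes higher and 1306 lower, and 13 list genes changed. With slide as a block, which leaves Ctrl 2 as the comparison, 2 members were higher and 2 lower, 681 of all genes higher and 543 lower, and 7 list genes changed. Within slide 1, with 1 Ctrl array, the counts were 2 members higher and 0 lower (limma; 2.13% of all genes passed), 282 of all genes higher and 123 lower, and 1 list gene. With a threshold of 0.01, 4 members were higher and 3 lower, 907 of all genes higher and 830 lower, and 10 list genes changed. Leaving out 1 pool at a time gave 5 to 9 members higher, 3 to 10 lower, 1022 to 2242 of all genes higher, 950 to 3375 lower, and 11 to 39 list genes changed. The cause of these moves was not tested. Same-numbered pools of the groups deviated with correlations of -0.269, -0.527 and 0.064 and no label pairs them, so the numbers name pools only. With the number as a replicate block, 5 members were higher and 2 lower, 792 of all genes were higher and 682 lower, and 7 list genes changed. Arrays of 1 slide had an estimated correlation of -0.137, and with slide as a random block all 15 calls were kept. Each of the 15 calls was also kept with quantile normalisation, the deposited log2 values, a floor at background, the mean of the kept probes, each probe on its own and the trend and robust variance model. Median scaling ended those of B3gnt8 and Galnt18. B3galt5 and B3gnt3 could not be fitted under the filter on all 6 arrays. A count over the alternatives covered changed members, the kept member with the highest mean per family, Ogt and up to 3 changed genes per related list. In it, 765 results kept direction and side of the threshold, 239 lost the call, 2 gained it (both St6gal1) and none reversed. Of the members outside this count, St8sia2 gained a call with quantile normalisation and with slide as a random block. Fut7, Galnt1, St6gal2 and St8sia1 gained one without OGT_SCKO 1, and Galnt14 without OGT_SCKO 2. Signal close to background limits B3galt5, B3gnt3, Galnt3 and Galnt14.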

Other observations

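Of the 68 gene names, 18 gave no kept probe. No probe of 14 of them was well above background on any array: B3galt1, B3gnt4, B3gnt6, B3gnt7, Fut1, Fut2, Fut4-ps1 (a pseudogene), Galnt5, Galnt9, Galnt13, Galntl5, Galntl6, Mgat4c and Mgat5. The other 4 lay just outside the filter. St8sia6 was above background on 2 of 3 OGT_SCKO arrays and 0 of 3 Ctrl arrays, with log2 values of -5.75, -5.12 and -4.81 in OGT_SCKO pools, against -6.53, -6.63 and -6.08 in Ctrl pools. Mgat4a was above background on 2 OGT_SCKO arrays and 1 Ctrl array, and Fut9 on 2 arrays of each group. St8sia3, a sialyltransferase of neurons, stood at -2.94 in OGT_SCKO 1, the single array where it was above background, against -7.38 and -6.33 in the other OGT_SCKO pools and -6.76, -6.62 and -6.10 in Ctrl pools. Just inside the filter, B3galt5, B3gnt3 and Galnt3 were kept through the OGT_SCKO arrays alone and Galnt14 through the Ctrl arrays alone.

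Of 10 tested genes for glycan-binding proteins 2 rose, 1 fell and 7 did not pass, a called share of 30.0% beside 23.3% of all genes. Lgals3, a galectin of macrophages and other cells that binds galactose-containing chains, had 2.96, 2.90 and 3.00 in OGT_SCKO pools, against 2.13, 2.12 and 2.24 in Ctrl pools. It rose 1.73-fold (limma adjusted p = 0.00296; 0.0395 with the slide block) and passed in all 6 fits that leave out a pool, while of 10 macrophage markers 2 were higher and none lower. Lgals9 rose 1.33-fold (limma adjusted p = 0.0496; 0.0979 with the slide block) and passed in none of these 6 fits. Lgals4 fell 1.86-fold (limma adjusted p = 0.0317; 0.081 with the slide block) and did not pass without OGT_SCKO 3, Ctrl 1, Ctrl 2 or Ctrl 3. Of 13 tested sialidases and lysosomal glycosidases 3 fell and none rose, a called share of 23.1% beside 23.3% of all genes. Neu1, the lysosomal sialidase, stood at 0.99, 0.96 and 1.14 in OGT_SCKO pools, against 1.74, 1.79 and 1.81 in Ctrl pools, a fall of 1.68-fold (limma adjusted p = 0.004; 0.055 with the slide block). Aga fell 1.33-fold (limma adjusted p = 0.047) and passed in none of the 6 fits that leave out a pool. The Fringe list's falls were Rfng (1.42-fold) and Poglut1 (1.36-fold), which did not pass with the slide block or without OGT_SCKO 3, Ctrl 1, Ctrl 2 or Ctrl 3, and Poglut1 also not without OGT_SCKO 1.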
